A study of Mus musculus with 21 samples.

Results

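The pathway that builds cholesterol and fatty acids was followed through 34 genes in primary mouse B cell precursors during the first days after an oncogene was introduced. The genes were listed by symbol for their place in the pathway, with earlier results of these data already known. All 34 were present among the 24421 gene symbols of the count table. RNA-seq was performed on 2 libraries for each of 3 groups, which differed in the MIGR1 retrovirus that the cells received: MIGR1 alone (empty vector, EV), BCR-ABL1p210 MIGR1 (BCR-ABL1) or C-MYC MIGR1 (C-MYC). Cells of every group came from the bone marrow of 53BP1-/- C57BL/6 mice, so the EV control also lacks 53BP1 and no wild-type reference was included. The cultures contained 10 ng/ml recombinant mouse IL-7 and fetal calf serum, were harvested 7 to 9 days after transduction and were depleted of dead cells before RNA was taken. The age and number of the mice and the share of cells that carried a vector are not given in the sources used here. BCR-ABL1 is a constitutively active tyrosine kinase, and C-MYC is a transcription factor that binds DNA as a dimer with MAX.

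Both lipid pathways start from cytosolic acetyl-CoA, which ATP citrate lyase releases from citrate. In the cholesterol branch, acetyl-CoA is condensed and reduced to mevalonate, which is turned into isoprene units, joined to farnesyl diphosphate and squalene, closed into lanosterol and trimmed to cholesterol. In the fatty acid branch, acetyl-CoA carboxylase makes malonyl-CoA, fatty acid synthase builds palmitate from it, and elongases and desaturases shape the chain. Transcription of both branches is driven by the SREBP factors, which SCAP escorts from the endoplasmic reticulum for processing when sterols are low and which the INSIG proteins hold back when sterols are high. Dividing lymphocytes draw on these pathways for new membranes.

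The libraries held between 20687092 and 24095955 counts, and 12786 genes, among them all 34 listed here, passed the filter on low counts. Replicates of a group differed beyond counting noise, and the log2 difference between replicates had an SD over genes of 0.521 (EV), 0.351 (BCR-ABL1) and 0.409 (C-MYC). The labels separate the replicates by number only, and the study's methods speak of duplicate experiments, so p-values measure the spread between these libraries. Myc transcripts stood at 181 and 137 CPM (counts per 1000000 counts of the library, TMM-normalized) in EV, 343 and 348 with BCR-ABL1, and 1743 and 1233 with C-MYC, in the direction of the C-MYC label. Bcr stood at 103 and 142 CPM in EV, 149 and 146 with BCR-ABL1, and 72.3 and 76.0 with C-MYC. Abl1 stood at 209 and 228, 269 and 248, and 181 and 165 CPM in the same order. Both were highest with BCR-ABL1 but close to EV, so that label had less backing from these counts than the C-MYC label. Trp53bp1, which encodes 53BP1, kept between 342 and 723 counts in the 6 libraries, and where its disrupted part lies is not given in the sources used here. Markers of B cell precursors (8 genes, among them Cd79a, Ebf1 and Pax5) summed to 4432 to 4918 CPM in EV, 4713 to 5170 with BCR-ABL1, and 2620 to 3085 with C-MYC. Markers of myeloid cells and macrophages (9 genes measured of 10 listed) summed to 1215 to 1283 CPM in EV, 154 to 176 with BCR-ABL1, and 232 to 388 with C-MYC. T and NK cell markers (5 genes) summed to 61.2 to 83.5, 3.03 to 3.99 and 2.21 to 2.60 CPM in the same order, and stromal markers (4 genes) to 102 to 156, 4.93 to 5.98 and 1.75 to 2.56 CPM. Erythroid markers stayed at or below 1.54 CPM with Hba-a1 at 0 everywhere, and of the 4 adipocyte markers Adipoq was at 0 everywhere while Fabp4 reached 9.33 and 22.05 CPM in C-MYC. EV therefore carried more transcripts of myeloid, T and NK, and stromal markers than both oncogene groups. Of the 8 B cell precursor markers, 6 were called lower in C-MYC than in EV, beside 24.5% of all genes tested. Against BCR-ABL1, 6 of the 8 were also called lower in C-MYC, beside 11.9% of all genes tested. The part of these shifts in the differences below, from EV and between the oncogene groups, was not tested. In bulk RNA, fewer cells of a type and less RNA per cell cannot be told apart.

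Per unit of transcript length, most of the pathway was well expressed in these bulk cultures. Of the 34 genes, 33 had a mean FPKM over the 6 libraries above 3.04, the median of all genes above 0. FPKM stands for fragments per kilobase of transcript and per 1000000 mapped fragments. Fasn (fatty acid synthase) had a mean of 219.6 FPKM over the 6 libraries and a range of 148 to 298, and Lbr (lamin B receptor, which is both a sterol reductase and a protein of the inner nuclear membrane) had a mean of 219.3 and a range of 159 to 250. Srebf2, which encodes the SREBP factor best known for sterol genes, followed with a mean of 186 FPKM, before Acly at 118 and Scd1 at 88.6. These 5 genes thus include the enzymes at both ends of fatty acid building and the regulator of the sterol branch. At the low end stood Mvk at 4.50 FPKM, Pmvk at 3.10 and Tm7sf2 at 1.02, where Mvk and Pmvk encode successive kinases of mevalonate and Tm7sf2 a sterol reductase with the same reaction as Lbr. Lbr was thus the far more abundant transcript of the 2 reductase genes, with no overlap between their 6 values. Between neighbours in this order the ranges over the 6 libraries overlapped, except that Srebf2 lay above Acly, Msmo1 above Mvd, and Pmvk above Tm7sf2. When levels were instead taken as CPM per kilobase of annotated exon, 4 of the top 5 were shared and Fasn stood at rank 8, so the order holds only roughly.

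**Figure D1:**
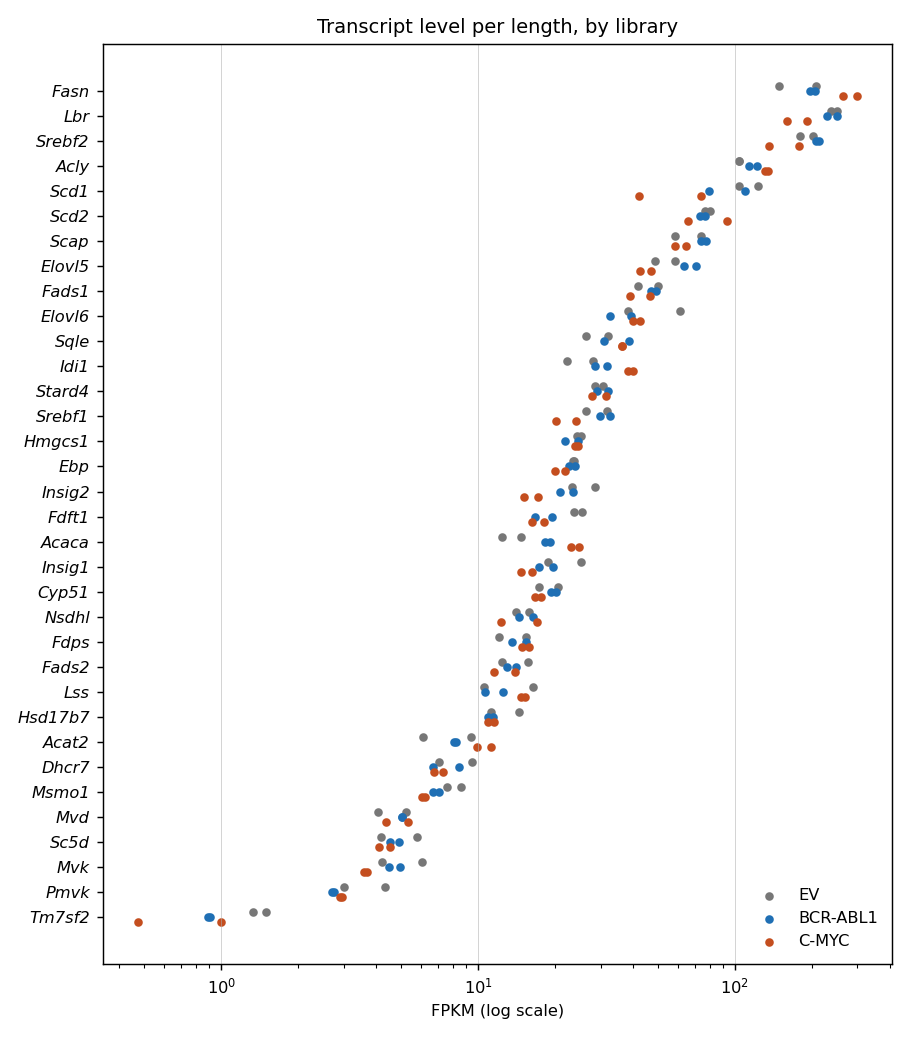
Transcript level per length of the 34 genes. Each point is 1 library's FPKM on a log axis, coloured by group, with genes ordered by their mean over the 6 libraries. Fasn, Lbr and Srebf2 lie at the top, Tm7sf2 at the bottom, and the points of neighbouring genes mostly overlap.

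Few genes of the pathway changed with either oncogene, and most of the calls came from C-MYC against EV. In BCR-ABL1 against EV, 1 of 34 genes (2.94%) passed the threshold of an adjusted p under 0.05 in the edgeR quasi-likelihood test, and it rose. Among all 12786 genes tested, 17.0% were called, 5.08% higher and 12.0% lower. In C-MYC against EV, 8 of 34 (23.5%) were called, 5 higher and 3 lower, where 43.1% of all genes were called, 18.6% higher and 24.5% lower. In C-MYC against BCR-ABL1, 4 of 34 (11.8%) were called, 2 higher and 2 lower, where 23.4% of all genes were called, 11.5% higher and 11.9% lower. The share of pathway genes called was thus below the share of all genes in each comparison. The median log2 fold change of the 34 genes was 0.03, -0.03 and -0.05 in these 3 comparisons, and that of all genes tested was 0.00, -0.08 and -0.00. At an unadjusted p under 0.05 the counts were 4, 10 and 9 genes. DESeq2 called 1, 7 and 5 of the 34, and limma on log2(FPKM + 0.1) called 0, 8 and 2. Both oncogene groups were compared with the same 2 EV libraries, and the oncogene groups with each other, so the 3 comparisons are not independent. Altogether 9 genes were called in at least 1 comparison and 25 in none.

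**Figure D2:**
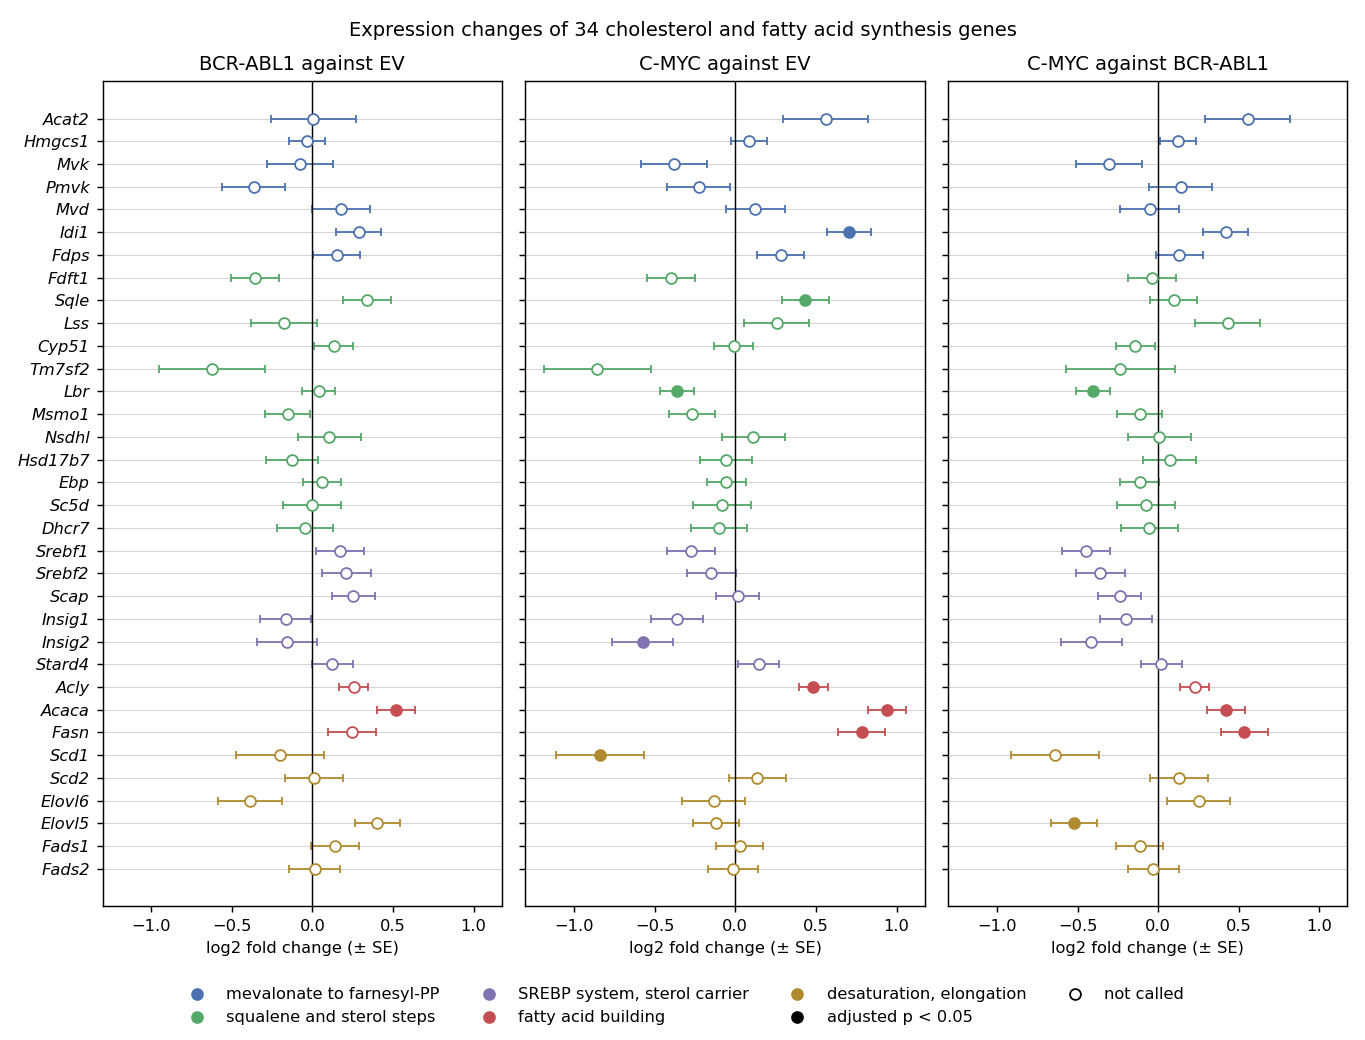
Log2 fold changes of the 34 genes in the 3 comparisons, in pathway order. Points are edgeR estimates from 2 libraries per group, bars are ± 1 SE, colours give the role, and filled points have an adjusted p under 0.05. Acly, Acaca and Fasn lie right of 0 in each panel, and all 3 are filled in C-MYC against EV.

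The clearest change was in the enzymes that build fatty acids. All 3 genes of this step, beside 18.6% of all genes tested, were called higher in C-MYC than in EV. Their fold changes ran from 1.40 to 1.92. Acaca (ENSMUSG00000020532, chr11:84129672-84401651, plus strand, GRCm38) encodes acetyl-CoA carboxylase, the committed step. Its values were 71.8 and 84.3 CPM in EV, 115 and 109 with BCR-ABL1, and 146 and 154 with C-MYC. The 3 groups did not overlap, with EV lowest and C-MYC highest. Acaca rose by 0.52 ± 0.12 (log2, SE, n = 2 per group, adjusted p = 0.0222) in BCR-ABL1 and by 0.94 ± 0.12 (adjusted p = 0.0009) in C-MYC against EV, and it was higher in C-MYC than in BCR-ABL1 by 0.42 ± 0.12 (adjusted p = 0.0366). It was the only one of the 34 genes called in all 3 comparisons by this test. The BCR-ABL1 call was lost without BCR-ABL1 replicate 1 (adjusted p = 0.166) or BCR-ABL1 replicate 2 (adjusted p = 0.119), and limma did not make it (adjusted p = 0.0833 with a pseudocount of 1).

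Fasn (ENSMUSG00000025153, chr11:120805846-120824547, minus strand) encodes the synthase that assembles palmitate. It reached 276 and 377 CPM in EV, 381 and 394 with BCR-ABL1, and 539 and 584 with C-MYC. Both C-MYC libraries lay above all 4 others, while EV replicate 2 lay just under the BCR-ABL1 libraries. Against EV, Fasn rose in C-MYC by 0.78 ± 0.15 (log2, SE, n = 2 per group, adjusted p = 0.0045), a fold change of 1.72, and the BCR-ABL1 estimate of 0.25 ± 0.15 did not pass (adjusted p = 0.301). Without EV replicate 2, which held more Fasn than EV replicate 1, the BCR-ABL1 estimate was 0.49 and passed (adjusted p = 0.0185). Fasn was higher in C-MYC than in BCR-ABL1 by 0.54 ± 0.15 (adjusted p = 0.0357).

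Acly (ENSMUSG00000020917, chr11:100476353-100528000, minus strand) encodes ATP citrate lyase, which feeds both branches. Its values were tight, at 377 and 371 CPM in EV, 434 and 460 with BCR-ABL1, and 528 and 519 with C-MYC. No groups overlapped and the order was again EV, BCR-ABL1, C-MYC. Acly rose in C-MYC against EV by 0.48 ± 0.09 (log2, SE, n = 2 per group, adjusted p = 0.0042), whereas the BCR-ABL1 estimate of 0.26 ± 0.09 missed the threshold (adjusted p = 0.0928), as did the difference of 0.23 ± 0.09 between the oncogenes (adjusted p = 0.109). The summed level of the 3 genes was 725 and 832 CPM in EV, 930 and 963 with BCR-ABL1, and 1213 and 1256 with C-MYC. In C-MYC against EV, the calls of Acaca and Acly held under all 12 alternative settings and that of Fasn under 11 of 12, with an adjusted p of 0.0513 in the limma fit without a filter. In C-MYC against BCR-ABL1, the Acaca and Fasn calls were both lost whenever any 1 of the 4 libraries was left out. The log2 estimates then lay between 0.38 and 0.46 for Acaca and between 0.48 and 0.59 for Fasn. limma made neither call in any of its 3 fits for this comparison. With a pseudocount of 1 and the filter, its adjusted p was 0.0978 for Acaca and 0.0895 for Fasn.

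**Figure D3:**
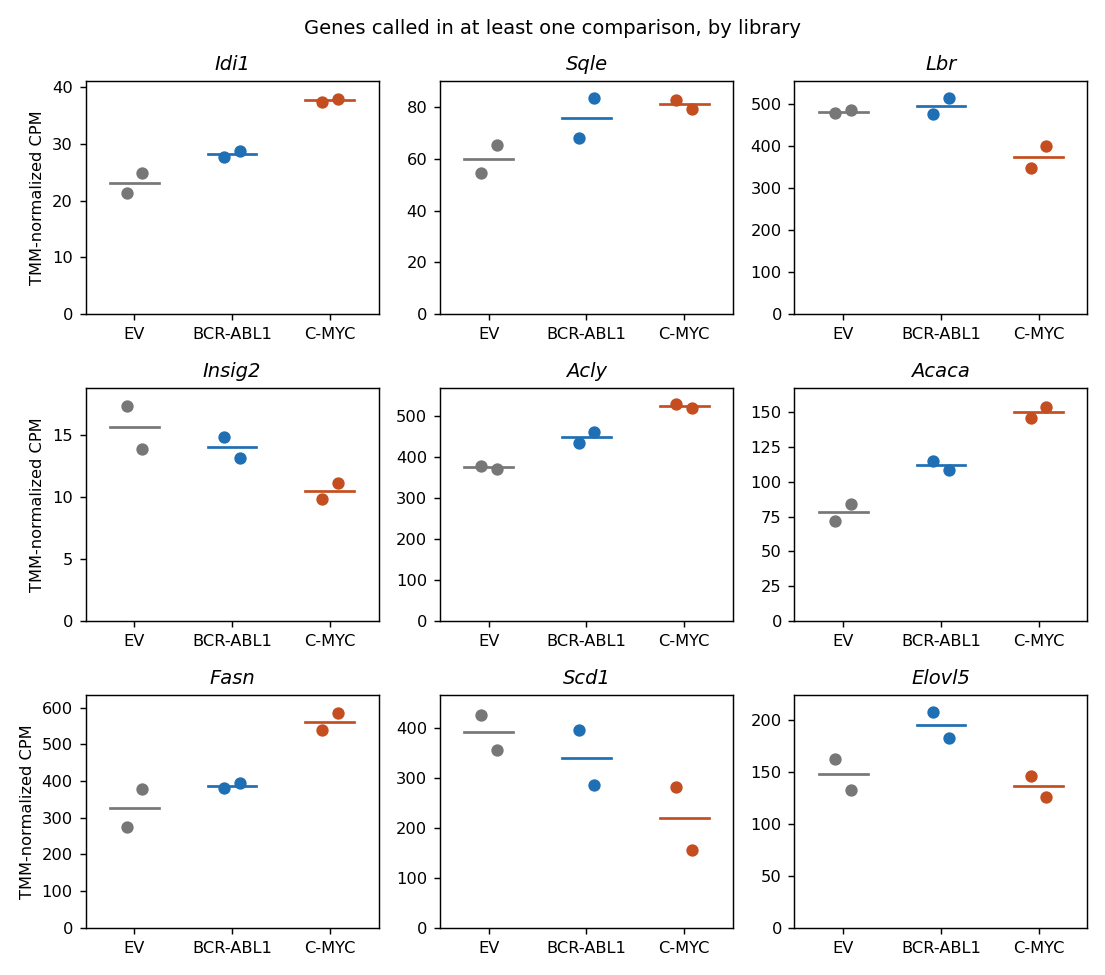
TMM-normalized CPM of the 9 genes called in at least 1 comparison. Points are libraries, 2 per group, lines are group means, and each axis starts at 0. Idi1, Acly, Acaca and Fasn step up from EV to C-MYC, Lbr, Insig2 and Scd1 are lowest in C-MYC, and Elovl5 is highest in BCR-ABL1.

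In the early sterol branch, from acetyl-CoA to farnesyl diphosphate, only Idi1 of 7 genes (14.3%) was called in C-MYC against EV. Among all genes tested 43.1% were called there. Idi1 (ENSMUSG00000058258, chr13:8885501-8892451, plus strand) encodes the isomerase that interconverts the 2 isoprene units. Its values were 21.3 and 24.9 CPM in EV, 27.7 and 28.7 with BCR-ABL1, and 37.4 and 37.9 with C-MYC. All 3 groups were apart, with C-MYC highest. Idi1 rose in C-MYC against EV by 0.71 ± 0.14 (log2, SE, n = 2 per group, adjusted p = 0.0052), a call that held under all 12 alternative settings. The BCR-ABL1 estimate was 0.29 ± 0.14 (adjusted p = 0.204), and the difference between C-MYC and BCR-ABL1 was 0.42 ± 0.14 (adjusted p = 0.063). Exons of Idi1 share 9.22% of their bases with Gm48574 on the other strand, and whether counting used strand is not given in the sources used here. The other 6 genes (Acat2, Hmgcs1, Mvk, Pmvk, Mvd and Fdps) had log2 fold changes from -0.38 to 0.56 in C-MYC against EV, with the lowest adjusted p at 0.121. Hmgcs1, the HMG-CoA synthase of this branch, was close to level at 78.6 and 79.8 CPM in EV, 73.1 and 81.4 with BCR-ABL1, and 84.8 and 83.2 with C-MYC. Its estimate in C-MYC against EV was 0.09 ± 0.11 (adjusted p = 0.572). Acat2, the cytosolic thiolase of the opening step, varied between the EV libraries, with 13.2 and 23.2 CPM in EV and 23.7 and 30.2 in C-MYC. Its estimate of 0.56 ± 0.26 did not pass, but without EV replicate 2 it was 1.03 (adjusted p = 0.0038). Fdps, the farnesyl diphosphate synthase, stood at 0.28 ± 0.15 (adjusted p = 0.156) and passed without EV replicate 2 (adjusted p = 0.0249), while Mvk passed as lower without EV replicate 1 (adjusted p = 0.0268). In BCR-ABL1 against EV the 7 genes lay between -0.36 and 0.29, with 0 called by edgeR, DESeq2 or limma and 0 at an unadjusted p under 0.05, though Pmvk passed as lower without EV replicate 1 (log2 -0.57, adjusted p = 0.0437). In C-MYC against BCR-ABL1 edgeR called 0 of 7, with 1 at an unadjusted p under 0.05 and 1 called by DESeq2, which was Idi1.

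Of the 12 genes from squalene to cholesterol, Sqle rose and Lbr fell in C-MYC against EV. These calls are 16.7% of the 12, beside 43.1% of all genes tested. Sqle (ENSMUSG00000022351, chr15:59315077-59331192, plus strand) encodes squalene epoxidase, an oxygen-dependent control step. It stood at 54.3 and 65.3 CPM in EV, 67.9 and 83.3 with BCR-ABL1, and 82.6 and 79.2 with C-MYC. EV lay below both oncogene groups, which overlapped with each other. The C-MYC estimate was 0.44 ± 0.15 (log2, SE, n = 2 per group, adjusted p = 0.0456), close to the threshold, and the BCR-ABL1 estimate was 0.34 ± 0.15 (adjusted p = 0.165). The Sqle call was lost without C-MYC replicate 1 (adjusted p = 0.169), C-MYC replicate 2 (adjusted p = 0.120) or EV replicate 1 (adjusted p = 0.121), and in limma (adjusted p = 0.139).

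Lbr (ENSMUSG00000004880, chr1:181815335-181843046, minus strand) moved the other way, with 478 and 487 CPM in EV, 476 and 515 with BCR-ABL1, and 349 and 401 with C-MYC. Both C-MYC libraries lay below the 4 others, and EV and BCR-ABL1 overlapped. Lbr fell by 0.36 on the log2 scale in C-MYC against EV (SE 0.11, n = 2 per group, adjusted p = 0.0255) and was lower in C-MYC than in BCR-ABL1 with a log2 difference of -0.40 (SE 0.11, adjusted p = 0.0298). The difference from EV was lost without C-MYC replicate 1, at -0.26 (adjusted p = 0.139), and the one from BCR-ABL1 without any 1 of the 4 libraries (adjusted p between 0.0503 and 0.211). Lbr exons share 10.7% of their bases with other genes, chiefly Dnah14 on the other strand. Tm7sf2, whose product carries out the same reduction, had few reads, at 4.02 and 4.60 CPM in EV, 2.99 and 2.62 with BCR-ABL1, and 1.70 and 3.05 with C-MYC. Its C-MYC estimate was -0.86 ± 0.33 (adjusted p = 0.0707), which passed at -1.33 without C-MYC replicate 2 (adjusted p = 0.0406), and 12.1% of its exon bases are shared with Vps51 on the same strand. Fdft1, the squalene synthase at the branch point toward sterols, had a C-MYC estimate of -0.40 ± 0.15 (adjusted p = 0.0638) and passed in limma (adjusted p = 0.0238), with 18.3% of its exon bases shared with Ctsb on the other strand. The remaining genes, Lss, Cyp51, Msmo1, Nsdhl, Hsd17b7, Ebp, Sc5d and Dhcr7, which close the ring, strip its methyl groups and place its double bonds, lay between -0.27 and 0.26 in C-MYC against EV. Lss, the lanosterol synthase, passed as higher without EV replicate 2 (log2 0.55, adjusted p = 0.0313). In BCR-ABL1 against EV the 12 genes lay between -0.62 and 0.34, with 0 called by edgeR, DESeq2 or limma and 1 at an unadjusted p under 0.05. Between the oncogene groups they lay between -0.40 and 0.43, and Lbr was the only 1 of the 12 called.

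Among the 6 regulators, Insig2 fell in C-MYC. The SREBP genes did not pass in edgeR with all 6 libraries, the filter on low counts and no covariate. Insig2 (ENSMUSG00000003721, chr1:121304353-121332589, minus strand) encodes an anchor that retains SCAP in the endoplasmic reticulum. It stood at 17.3 and 13.9 CPM in EV, 14.8 and 13.1 with BCR-ABL1, and 9.84 and 11.1 with C-MYC. The C-MYC libraries were the lowest pair, and EV and BCR-ABL1 overlapped. Insig2 fell by 0.57 on the log2 scale in C-MYC against EV (SE 0.19, n = 2 per group, adjusted p = 0.0419), and its log2 difference from BCR-ABL1 was -0.41 (SE 0.19, adjusted p = 0.155). The call was lost with size factors in place of TMM (adjusted p = 0.0556), in DESeq2 (adjusted p = 0.0663) and without C-MYC replicate 1, C-MYC replicate 2 or EV replicate 1 (adjusted p = 0.199, 0.0967 and 0.127). Insig1, the paralog that is itself a target of SREBP, had 70.0 and 52.7 CPM in EV, 51.4 and 57.9 with BCR-ABL1, and 46.1 and 49.2 with C-MYC. Its C-MYC estimate of -0.36 ± 0.16 did not pass (adjusted p = 0.104), but without EV replicate 2 it was -0.55 (adjusted p = 0.0092). Srebf1, which encodes the SREBP forms best known for fatty acid genes, had 134 and 110 CPM in EV, 143 and 131 with BCR-ABL1, and 111 and 89.5 with C-MYC. The C-MYC libraries were below both BCR-ABL1 libraries and overlapped EV. Its estimates were -0.28 ± 0.15 against EV (adjusted p = 0.169, and 0.0484 without EV replicate 2) and -0.45 ± 0.15 against BCR-ABL1 (adjusted p = 0.0648). The difference from BCR-ABL1 passed without a filter on low counts (adjusted p = 0.0440) and with only the libraries compared (adjusted p = 0.0211). Srebf2 had 350 and 301 CPM in EV, 383 and 371 with BCR-ABL1, and 338 and 249 with C-MYC, with estimates of -0.15 ± 0.15 against EV (adjusted p = 0.472) and -0.36 ± 0.15 against BCR-ABL1 (adjusted p = 0.131). Without C-MYC replicate 1 the second of these passed at -0.60 (adjusted p = 0.0472). Scap and the sterol carrier gene Stard4 lay at 0.02 and 0.15 in C-MYC against EV. In BCR-ABL1 against EV edgeR, DESeq2 and limma each called 0 of the 6, with 0 at an unadjusted p under 0.05, though Scap passed without EV replicate 2 (log2 0.43, adjusted p = 0.0453). Between C-MYC and BCR-ABL1, DESeq2, limma and edgeR with all 6 libraries, the filter and no covariate also called 0. In that edgeR fit 2 had an unadjusted p under 0.05.

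The genes that desaturate and lengthen fatty acids split, with Scd1 lower in C-MYC and Elovl5 set apart between the oncogenes. Scd1 (ENSMUSG00000037071, chr19:44394455-44407879, minus strand) encodes a stearoyl-CoA desaturase that makes oleate. Its values were 427 and 356 CPM in EV, 396 and 285 with BCR-ABL1, and 282 and 156 with C-MYC. Replicates differed widely in each group, and the higher C-MYC library lay close below the lower BCR-ABL1 library. Scd1 fell by 0.84 on the log2 scale in C-MYC against EV (SE 0.27, n = 2 per group, adjusted p = 0.0394), while the log2 difference of -0.64 from BCR-ABL1 did not pass (SE 0.27, adjusted p = 0.130, and 0.0428 without a filter on low counts). Without C-MYC replicate 2, the lowest library, the difference from EV was -0.47 (adjusted p = 0.159), without EV replicate 1 it was -0.70 (adjusted p = 0.0979), and without C-MYC replicate 1 the difference from BCR-ABL1 was -1.13 and passed (adjusted p = 0.0343). Its neighbour and close paralog Scd2 did not fall with it, at 243 and 223 CPM in EV, 235 and 234 with BCR-ABL1, and 308 and 204 with C-MYC (log2 0.14 ± 0.18 in C-MYC against EV, adjusted p = 0.570). Reads from such similar genes may be divided uncertainly between them.

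Elovl5 (ENSMUSG00000032349, chr9:77917364-77984519, plus strand) encodes an elongase of polyunsaturated chains. It reached 163 and 133 CPM in EV, 208 and 183 with BCR-ABL1, and 146 and 126 with C-MYC. BCR-ABL1 stood above both other groups, which overlapped. Elovl5 was lower in C-MYC than in BCR-ABL1 with a log2 difference of -0.52 (SE 0.14, n = 2 per group, adjusted p = 0.0324), and its estimate in BCR-ABL1 against EV was 0.40 ± 0.14 (adjusted p = 0.0909, and 0.0245 without EV replicate 1). The difference between the oncogenes was lost without any 1 of the 4 libraries (adjusted p between 0.0766 and 0.240). Elovl6, which lengthens palmitate, had 231 and 360 CPM in EV, 206 and 246 with BCR-ABL1, and 266 and 271 with C-MYC, with an EV spread wide enough to span the C-MYC values. Without EV replicate 1 it passed as lower in BCR-ABL1 (log2 -0.66, adjusted p = 0.0095) and in C-MYC (log2 -0.42, adjusted p = 0.0312). The front-end desaturase genes Fads1 and Fads2 lay between -0.02 and 0.14 in both comparisons with EV. edgeR, DESeq2 and limma each called 0 of the 6 in BCR-ABL1 against EV, where 1 had an unadjusted p under 0.05.

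Summed by role, the groups differed in direction. Fatty acid building was lowest in both EV libraries and highest in both C-MYC libraries. The 12 genes from squalene to cholesterol summed to 852 and 890 CPM in EV, 865 and 921 with BCR-ABL1, and 754 and 778 with C-MYC. Of these sums, Lbr alone contributed 478 and 487 CPM in EV, 476 and 515 with BCR-ABL1, and 349 and 401 with C-MYC. The lower C-MYC sum therefore does not describe the other genes of this role. The 7 genes up to farnesyl diphosphate summed to 193 and 231, 208 and 227, and 241 and 249 CPM in the same order. Regulators summed to 827 and 779, 924 and 896, and 806 and 672 CPM, and desaturation and elongation to 1173 and 1203, 1174 and 1076, and 1137 and 866 CPM. Of the desaturation and elongation sums, Scd1 alone contributed 427 and 356, 396 and 285, and 282 and 156 CPM. Scd1 was also the only 1 of these 6 genes called in C-MYC against EV, so the lower C-MYC sum does not describe each gene of this role. Over all 34 genes the sums were 3769 and 3935 CPM in EV, 4101 and 4083 with BCR-ABL1, and 4151 and 3822 with C-MYC, so that C-MYC spanned the BCR-ABL1 values and overlapped EV.

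**Figure D4:**
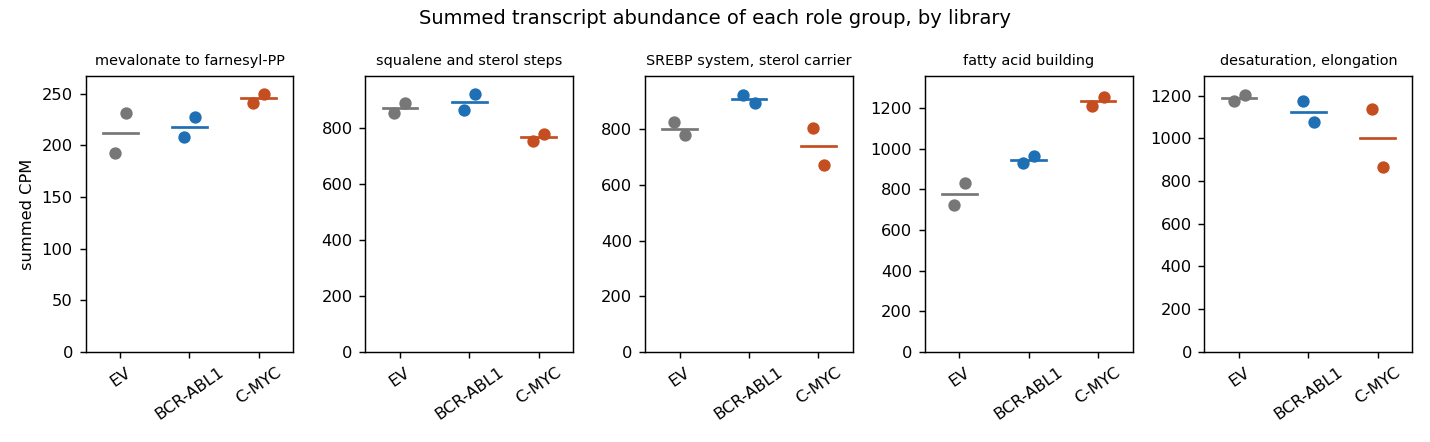
Summed CPM of the genes of each role, by library. Points are libraries, 2 per group, lines are group means, and each axis starts at 0. Fatty acid building rises from 725 and 832 in EV to 1213 and 1256 in C-MYC. The sum of the squalene and sterol steps, of which Lbr is the largest part, is lowest in C-MYC.

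Promoters were read from RefSeq for GRCm38.p6, in which 27 of the 34 genes have 35 entries. No entry was found for Fdps, Fdft1, Sqle, Stard4, Scd1, Scd2 and Fads1. The 250 bases upstream of each start were searched on both strands for the E-box CACGTG (a site type bound by MYC with MAX and by SREBP), the CCAAT box CCAAT (bound by NF-Y), the GC box GGGCGG (bound by Sp1) and TCACNCCAC (letters of the classical sterol regulatory element). E-box letters were in 17.1% of the pathway's promoters and 6.02% of all 32851 promoters, CCAAT letters in 62.9% and 33.8%, GC box letters in 71.4% and 32.7%, and sterol element letters in 2.86% and 1.05%. A match is a description of the letters and not of binding, and a missing match covers only these exact letters within these 250 bases. Shown here are Acly, Fasn and Idi1, which rose in C-MYC against EV. Also shown are Elovl5, which holds an E-box, and Hmgcs1, whose promoter was the only 1 with the sterol element letters. Elovl5 was lower in C-MYC than in BCR-ABL1 but was not called in C-MYC against EV (log2 -0.12, adjusted p = 0.525). Capitals mark matches to any of the 4 motifs on either strand, and each line runs 5′ to 3′ along the gene's strand to the base before the start.
Acly: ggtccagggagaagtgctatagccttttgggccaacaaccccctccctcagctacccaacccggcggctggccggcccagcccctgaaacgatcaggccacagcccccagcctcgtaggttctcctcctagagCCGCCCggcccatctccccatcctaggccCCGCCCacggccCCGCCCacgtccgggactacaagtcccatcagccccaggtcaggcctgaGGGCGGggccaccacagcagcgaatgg
Fasn: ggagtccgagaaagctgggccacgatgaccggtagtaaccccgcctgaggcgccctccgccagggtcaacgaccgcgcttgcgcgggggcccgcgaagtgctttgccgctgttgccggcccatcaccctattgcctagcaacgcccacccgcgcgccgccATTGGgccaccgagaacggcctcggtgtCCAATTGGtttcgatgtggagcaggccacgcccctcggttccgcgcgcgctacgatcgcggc
Idi1: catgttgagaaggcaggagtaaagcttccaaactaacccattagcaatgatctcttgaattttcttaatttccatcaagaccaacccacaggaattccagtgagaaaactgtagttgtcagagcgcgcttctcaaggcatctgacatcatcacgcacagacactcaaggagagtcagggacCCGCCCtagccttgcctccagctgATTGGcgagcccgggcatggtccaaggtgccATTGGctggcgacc
Elovl5: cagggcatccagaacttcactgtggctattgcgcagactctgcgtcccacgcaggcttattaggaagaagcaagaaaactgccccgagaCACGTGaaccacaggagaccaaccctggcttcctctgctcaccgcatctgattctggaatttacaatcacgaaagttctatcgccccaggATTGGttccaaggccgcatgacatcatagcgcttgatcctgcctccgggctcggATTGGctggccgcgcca
Hmgcs1: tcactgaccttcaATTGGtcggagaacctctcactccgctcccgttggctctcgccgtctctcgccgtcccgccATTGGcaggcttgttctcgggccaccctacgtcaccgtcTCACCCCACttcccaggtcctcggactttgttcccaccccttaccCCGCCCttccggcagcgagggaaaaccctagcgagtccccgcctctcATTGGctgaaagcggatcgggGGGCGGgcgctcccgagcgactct
The windows are chr11:100528001-100528250 (minus) for Acly, chr11:120824548-120824797 (minus) for Fasn, chr13:8885356-8885605 (plus) for Idi1, chr9:77917115-77917364 (plus) for Elovl5 and chr13:119690101-119690350 (plus) for Hmgcs1. Acly has 4 GC boxes, which begin 117, 88, 76 and 27 bases before the start. Fasn has 3 CCAAT boxes, at 90, 62 and 59 bases, of which the last 2 overlap on opposite strands. Idi1 has a GC box at 69 bases and CCAAT boxes at 45 and 14, and Hmgcs1 has the sterol element letters at 137 bases. In the windows of Acly, Fasn and Idi1 the E-box letters were not found, while that of Elovl5 holds them at 161 bases. Besides Elovl5, the E-box letters were in an entry of Dhcr7, Hsd17b7, Insig1, Sc5d and Scap. In C-MYC against EV these 6 genes had log2 fold changes from -0.36 (Insig1) to 0.02 (Scap), with adjusted p of 0.104 or more. The entry for Acaca is not printed because it lies inside the gene, more than 250 bases beyond its annotated start.

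Other lipid genes from a list of 60, of which 58 were tested, gave a setting for these values. In BCR-ABL1 against EV 9 of 58 (15.5%) were called, 4 higher and 5 lower, beside 17.0% of all genes tested. The counts were 20 (34.5%) in C-MYC against EV, 12 higher and 8 lower, beside 43.1% of all genes, and 12 (20.7%) in C-MYC against BCR-ABL1, 9 higher and 3 lower, beside 23.4%, so the list lay below the share of all genes in each comparison. Genes of isoprenoid branches that leave the sterol route after farnesyl diphosphate rose in C-MYC against EV in 3 of 9 cases (Pdss1, Nus1 and Coq2), where 18.6% of all genes were called higher. Among them was Pdss1, which builds the tail of ubiquinone and rose by 0.84 ± 0.19 (log2, SE, adjusted p = 0.0103). Mcat, the malonyl transferase of mitochondrial fatty acid synthesis, rose by 0.83 ± 0.14 (adjusted p = 0.0027) and Fabp5, a fatty acid carrier, by 1.39 ± 0.24 (adjusted p = 0.0030). Of the 12 genes of sterol export, esterification, storage and LXR signalling, 5 fell in C-MYC against EV (41.7%), where 24.5% of all genes were called lower and 43.1% either way. In the same comparison 8 of the 9 myeloid and macrophage markers measured were called lower. The part of that marker shift in the changes of the lipid genes was not tested. Mylip, the ligase that degrades lipoprotein receptors, fell by 1.25 on the log2 scale in C-MYC (adjusted p = 0.0015), and Dgat1, which makes triglyceride, fell by 1.37 (adjusted p = 0.0036). Vldlr, a lipoprotein receptor, was also called lower, at 0.841 and 0.627 CPM in EV and 0.0919 and 0 in C-MYC, too few reads for a fold change.

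In BCR-ABL1 against EV, the largest changes among these other lipid genes were in sterol export and fatty acid uptake. Abca1, which exports cholesterol, fell by 2.23 on the log2 scale against EV (SE 0.24, adjusted p = 0.0013), from 21.6 and 28.7 CPM to 5.93 and 4.82. Cd36, a fatty acid receptor that macrophages also express, fell by 1.84 (SE 0.38, adjusted p = 0.0152), and Dgat1 fell by 1.22 (SE 0.24, adjusted p = 0.0136). The myeloid and macrophage markers were lower in the same comparison, with 9 of the 9 measured called lower, beside 12.0% of all genes tested. The part of these markers' shift in the values above was not tested. Higher in BCR-ABL1 were Lrp8, a lipoprotein receptor, by 0.87 ± 0.19 (adjusted p = 0.0204), Acsl1, an acyl-CoA synthetase, by 0.77 ± 0.15 (adjusted p = 0.0124), and Hsd17b12, the reductase that works with the elongases, by 0.60 ± 0.11 (adjusted p = 0.0087). Hsd17b12, like Elovl5, was highest in BCR-ABL1, at 85.8 and 79.9 CPM in EV, 123 and 128 with BCR-ABL1, and 88.9 and 89.7 with C-MYC. Between the oncogenes, Nr1h3, Cd36 and Fabp5 were higher in C-MYC by 2.49, 1.67 and 1.61 on the log2 scale (adjusted p = 0.0348, 0.0181 and 0.0043). In that comparison 3 of the 9 myeloid and macrophage markers were also called higher, beside 11.5% of all genes tested. Nr1h3, which encodes the sterol sensor LXR alpha, stayed low, at 0.521 and 0.623 CPM with BCR-ABL1, and 2.07 and 4.45 CPM with C-MYC. Acsl1, Hsd17b12 and Npc2 were lower in C-MYC than in BCR-ABL1, with log2 differences of -0.71, -0.49 and -0.47 (adjusted p = 0.0142, 0.0148 and 0.0183).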

How the data were processed

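RNA-seq of 53BP1-/- B cell precursors transduced with EV, BCR-ABL1 or C-MYC was analyzed, with 2 libraries per group and groups taken from the sample labels. The authors made the deposited counts (whole numbers per gene symbol, not normalized) from poly(A) RNA reads aligned with STAR 2.5.0 to GRCm38/mm10 with UCSC known genes, and the deposited FPKM values with StringTie 1.3.0. The program that counted reads and its handling of strand are not given in the sources used here, and no column of other samples was present. The ChIP-seq files were not analysed here.

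Genes were filtered with filterByExpr by group (12786 of 24421 kept), scaled by TMM and tested with the quasi-likelihood test of edgeR 4.0.16 in R 4.3.3, all 6 libraries in 1 model with no covariate, at a Benjamini-Hochberg adjusted p under 0.05 over all genes tested. The SE is the absolute log2 fold change divided by the square root of the F statistic. Every listed gene is accounted for, those called in at least 1 comparison are given in every library, and of the other lipid genes the 3 largest changes per direction and comparison are named. Pdss1, Nus1 and Coq2 are also named together, and Insig1, Srebf1, Srebf2, Acat2, Hmgcs1, Tm7sf2, Scd2 and Elovl6 are given by library, after their values were seen. Some genes of the marker lists are not reported here. The members and lists were chosen with earlier results of these data known. Alternatives were size factors, no filter, DESeq2 1.42.0, limma 3.58.1 on log2(FPKM + 1) or log2(FPKM + 0.1) for genes with a mean FPKM of at least 1 or without a filter, only the libraries compared, a replicate block, and leaving out each library. The limma counts per group of genes use the fits with a filter and were the same with a pseudocount of 1 and of 0.1. The edgeR script was tested on simulated data. Gene positions are from GENCODE M21. Python 3.11.15 with pandas 2.3.3, numpy 2.4.6 and matplotlib 3.10.9 was used.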

Additional observations from a re-analysis of the deposited data

How the results depend on the processing

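With 2 libraries per group, many calls inside the pathway depended on the fit, and the log2 fold changes of the 9 called genes, in the comparisons in which they were called, kept their sign under each alternative. The number of pathway genes called in BCR-ABL1 against EV was 1, and it was 0 with only the libraries compared, 0 in each of the 3 limma fits, 2 with the replicate block and between 0 and 4 with 1 library left out. In C-MYC against EV it was 8, then 5 with only the libraries compared, where Lbr, Insig2 and Scd1 were lost, and between 5 (without C-MYC replicate 1) and 13 (without EV replicate 2) with 1 library left out. In C-MYC against BCR-ABL1 it was 4, then 8 with only the libraries compared, which added Acat2, Idi1, Lss and Srebf1, 9 with the replicate block, 2 in both limma fits with a filter, 0 in limma without one and between 0 and 2 with 1 library left out. The median log2 fold change of the 34 genes in BCR-ABL1 against EV was 0.03, and it was -0.018 in both limma fits with a pseudocount of 1 and -0.0183 with 0.1. With 1 library left out it lay between 0.0402 and 0.1162 in BCR-ABL1 against EV, between -0.13 and 0.0977 in C-MYC against EV and between -0.1142 and 0.0282 in C-MYC against BCR-ABL1. The cause of these shifts was not tested.

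Replicate numbers are shared between groups without a stated pairing. Deviations from the group means correlated between same-numbered libraries at 0.273 (EV and BCR-ABL1), 0.236 (EV and C-MYC) and 0.204 (BCR-ABL1 and C-MYC) across 12786 genes, which are not independent replicates. The replicate block raised the other lipid genes called in C-MYC against BCR-ABL1 from 12 to 19 and added calls of Elovl5 in BCR-ABL1, of Acat2, Fdft1, Tm7sf2 and Srebf1 in C-MYC against EV, and of Acat2, Idi1, Srebf1, Srebf2 and Scd1 between the oncogenes.

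Over all genes, 2180 were called in BCR-ABL1 against EV (29.8% of them higher), and 1055, 1043 and 1425 (23.5%, 23.6% and 19.4% higher) in limma with a pseudocount of 1, of 0.1 and without a filter, and 714 and 665 (17.9% and 17.7% higher) without BCR-ABL1 replicate 1 or 2. In C-MYC against EV 5515 were called (43.2% higher), 3329 and 3563 without C-MYC replicate 1 or 2, and 4602 in limma without a filter (32.0% higher). In C-MYC against BCR-ABL1 2991 were called (49.1% higher), 4538 with only the libraries compared, 1412 in limma without a filter, and 618 (28.5% higher), 1130, 1291 and 1038 without BCR-ABL1 replicate 1 or 2 or C-MYC replicate 1 or 2. Genes with few reads, such as Tm7sf2 and Vldlr, had wide errors.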
